A study of Mus musculus with 52 samples.

Results

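The small leucine-rich proteoglycans were followed across primary mouse osteosarcomas that differ in their p53 alleles. The 10 genes were taken by name: Dcn, Bgn, Aspn, Fmod, Lum, Omd, Ogn, Epyc, Chad and Podn. Of these, 9 had a row among the 20730 genes of the count table, and all 9 passed the filter on low counts. Epyc, which encodes a cartilage proteoglycan of the growth plate, had no row in the table analysed here and was not analysed.

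Small leucine-rich proteoglycans are secreted proteins built on a chain of leucine-rich repeats, many of which carry chondroitin, dermatan or keratan sulfate chains. They bind collagen fibrils and control their width and spacing, and several of them also bind growth factors such as TGF-beta or signal through cell surface receptors. In bone they belong to the organic matrix that osteoblasts lay down before it mineralises.

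RNA was sequenced from 17 p53R245W/fl, 19 p53R172H/fl and 16 p53fl/fl osteosarcoma libraries, 52 in all, from tumours that had been frozen at removal. In the missense groups 1 Trp53 allele carries the named substitution (numbered as in mouse p53) and the other is floxed, and in p53fl/fl tumours both alleles are floxed. The floxed allele is common to all 3 groups, and the sources used here do not give the Cre driver, strain, age or sex. No group without a p53 change was analysed here. The labels give each library a tumour number but do not say whether tumours came from separate animals, so p-values measure the spread between these samples.

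Total counts ran between 21596798 and 67223388 per library, with a median of 51026968.5. Levels are given as CPM, counts scaled to the TMM library size. Trp53 averaged 37.1 ± 11.2 CPM in p53R245W/fl libraries (SD, n = 17) and 35.6 ± 6.27 CPM in p53R172H/fl libraries (SD, n = 19), against 14.4 ± 3.88 CPM in p53fl/fl libraries (SD, n = 16). The column names carry 6 prefixes, grouped here into 3 sets, A, B and C. Set A joins 4 prefixes, WFM and WFNM with 4 p53R172H/fl libraries each and FM and FNM with 5 and 3 p53fl/fl libraries, so prefix and genotype cannot be told apart within it, and M and NM, which the labels do not explain, were not compared. Sets B and C have 1 prefix each. Set B holds 6 libraries of each genotype and set C 11 p53R245W/fl, 5 p53R172H/fl and 2 p53fl/fl libraries, so set and genotype are partly confounded. The column names also carry a code that starts with L. In set C this code is the same for all p53R172H/fl and p53fl/fl libraries. It differs from theirs in every p53R245W/fl library of the set except 1580, so code and genotype can hardly be told apart there. All 18 set B libraries had 1 match of their own genotype in set A or C, with a Spearman correlation of 0.598 to 0.909 over the deviations of 13020 genes from their set and genotype means. No other pair of libraries exceeded 0.409. Matched libraries carry different tumour numbers and are not independent, so values were also taken over 34 tumour units (11 p53R245W/fl, 13 p53R172H/fl and 10 p53fl/fl), each a matched pair or a single library. In 5 p53R245W/fl libraries from 3 units (408 with 1835, 494 with 1831, and 1580), Col1a1 lay under 13 log2 CPM, below every other library. The p53R172H/fl library 627 held both Xist and the Y-linked Ddx3y.

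Aspn, Omd and Ogn lie one after the other on the plus strand of chromosome 13, and Dcn and Lum are neighbours on chromosome 10. The 250 bases upstream of the RefSeq start (GRCm38.p6, plus strand) are shown for the chromosome 13 genes, because these neighbours are compared with each other in the results. They lie at chr13:49544193-49544442 (Aspn), chr13:49582212-49582461 (Omd) and chr13:49607765-49608014 (Ogn). Capitals mark matches to TATAAA or its reverse complement TTTATA, to the RUNX core TGTGGT or its reverse complement ACCACA, and to the AP-1 letters TGANTCA.
Aspn: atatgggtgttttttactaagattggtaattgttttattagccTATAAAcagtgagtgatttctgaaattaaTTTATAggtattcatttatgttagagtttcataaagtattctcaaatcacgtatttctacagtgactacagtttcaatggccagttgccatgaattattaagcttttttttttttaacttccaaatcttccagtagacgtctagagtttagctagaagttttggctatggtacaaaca
Omd: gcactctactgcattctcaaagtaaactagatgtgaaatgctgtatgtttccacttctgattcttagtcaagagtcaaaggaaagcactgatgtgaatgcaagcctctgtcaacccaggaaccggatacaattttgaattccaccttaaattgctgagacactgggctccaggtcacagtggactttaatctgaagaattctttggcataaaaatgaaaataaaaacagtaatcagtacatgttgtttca
Ogn: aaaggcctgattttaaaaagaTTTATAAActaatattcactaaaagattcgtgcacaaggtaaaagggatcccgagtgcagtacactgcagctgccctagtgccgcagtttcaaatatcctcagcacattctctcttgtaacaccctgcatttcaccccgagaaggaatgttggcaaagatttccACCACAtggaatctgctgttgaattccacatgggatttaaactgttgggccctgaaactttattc

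The Aspn window held TATAAA starting 207 bases before the start and TTTATA starting 178 bases before it. The Ogn window held a TTTATA and a TATAAA that overlap, starting 229 and 227 bases before the start, and ACCACA starting 65 bases before it. The Omd window held no match to any of these letters, and none of the 3 windows held TGANTCA. Over 32851 RefSeq windows of this length, 12.37% held TATAAA, 14.05% the RUNX core and 6.75% the AP-1 letters on either strand. G and C made up 30% of the Aspn, 38.4% of the Omd and 42.0% of the Ogn window, against a median of 52.4% over all windows. All 3 were thus poorer in G and C than the median window, as were the Fmod window (51.2%) and both Epyc windows (39.2% and 31.2%), while the Bgn window (64.4%), the Chad window (60.4%) and both Podn windows (78.0% and 64.0%) were richer.

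Bgn RNA was the most abundant of the measured members per length of transcript, and Chad and Podn RNA the least. On the scale of CPM per kilobase of exon, the medians over 34 units were 192 for Bgn, 118 for Fmod, 48.5 for Lum, 34.3 for Dcn, 22.7 for Aspn, 14.3 for Ogn, 10.1 for Omd, 1.70 for Chad and 0.975 for Podn. Neighbours in this order were compared within units by permutation of signs, with 8 comparisons. Bgn lay above Fmod in 24 of 34 units (adjusted p = 0.00032), Fmod above Lum in 29 (adjusted p = 0.00676), Aspn above Ogn in 25 (adjusted p = 0.00676), Ogn above Omd in 23 (adjusted p = 0.0153) and Omd above Chad in 29 (adjusted p = 0.00016). Lum and Dcn (adjusted p = 0.259), Dcn and Aspn (adjusted p = 0.196) and Chad and Podn (adjusted p = 0.200) were not separated beyond their spread. Exon lengths come from GENCODE M21, and the identifiers of Dcn, Lum, Omd and Ogn in the table carry an earlier version, so their lengths are approximate.

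**Figure D1:**
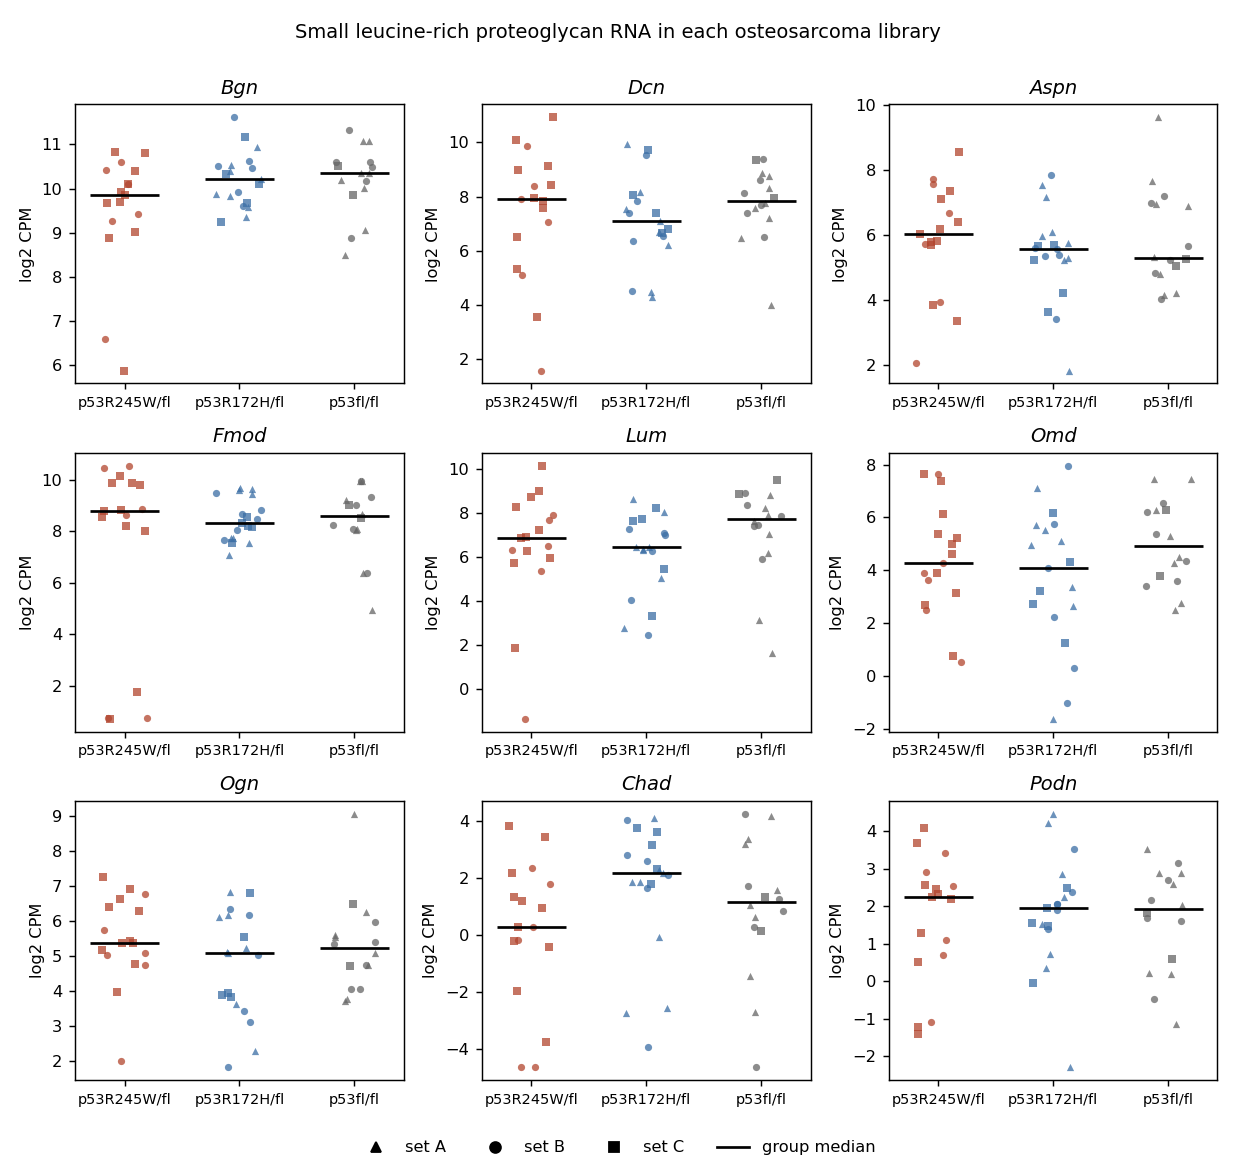
Log2 CPM (vertical axis) of the 9 measured small leucine-rich proteoglycan genes in every library, by genotype (horizontal axis), with point shapes for the library sets and a bar at the group median. The 3 genotypes overlap in every gene, and the spread within a genotype exceeds the distance between the medians.

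The first class of the family comprises Bgn, Dcn and Aspn. Bgn (biglycan, on chromosome X, a bone matrix proteoglycan that as a soluble fragment binds Tlr2 and Tlr4) had a lowest, median and highest level of 58.7, 928 and 1807 CPM in p53R245W/fl libraries, of 601, 1186 and 3145 CPM in p53R172H/fl libraries and of 362, 1306 and 2573 CPM in p53fl/fl libraries. Bgn varied least of the 9 genes between units, with a log2 SD of 0.923, and its lowest levels were those of the matched p53R245W/fl libraries 1835 and 408. Dcn (decorin, which binds collagen I and TGF-beta and is a ligand of Egfr and Met) had 2.95, 242 and 1958 CPM in p53R245W/fl libraries, 19.4, 138 and 982 CPM in p53R172H/fl libraries and 15.97, 231 and 675 CPM in p53fl/fl libraries. Both the highest and the lowest Dcn level of the series thus stood in p53R245W/fl libraries (1580 and 408). Aspn (asporin, which binds collagen and carries no sulfate chain) had 4.13, 65.6 and 376 CPM in p53R245W/fl libraries, 3.53, 48.1 and 232 CPM in p53R172H/fl libraries and 16.3, 39.1 and 793 CPM in p53fl/fl libraries. The highest Aspn level was that of p53fl/fl library 1606, which was also the highest of the series in Ogn.

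The second class comprises Fmod, Lum and Omd, whose proteins can carry keratan sulfate. Fmod (fibromodulin, which binds collagen I and is abundant in tendon) had 1.61, 440 and 1498 CPM in p53R245W/fl libraries, 135, 322 and 824 CPM in p53R172H/fl libraries and 30.7, 385 and 996 CPM in p53fl/fl libraries. The p53R245W/fl libraries 408, 1835, 494 and 1831 had between 1.61 and 3.34 CPM, below every other library. The remaining p53R245W/fl libraries overlapped the other genotypes at their upper end. Of these, 3 lay above every p53fl/fl library and 6 above every p53R172H/fl library. Lum (lumican, which spaces collagen fibrils in the cornea and is made by osteoblasts) had 0.348, 117 and 1130 CPM in p53R245W/fl libraries, 5.4, 87.6 and 398 CPM in p53R172H/fl libraries and 3.08, 213 and 706 CPM in p53fl/fl libraries. Each genotype had at least 1 library with under 7 CPM of Lum. Omd (osteomodulin or osteoadherin, a proteoglycan of mineralised matrix) had 1.41, 19.4 and 203 CPM in p53R245W/fl libraries, 0.283, 17.1 and 250.2 CPM in p53R172H/fl libraries and 5.63, 30.9 and 177 CPM in p53fl/fl libraries. The lowest and the highest Omd level both stood in p53R172H/fl libraries (622 and 344), and each was repeated in the matched library, at 0.446 CPM in 524 and 137 CPM in 383.

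Ogn (osteoglycin or mimecan, of the third class) had 3.94, 41.5 and 152 CPM in p53R245W/fl libraries, 3.49, 33.6 and 114 CPM in p53R172H/fl libraries and 13.1, 37.3 and 534 CPM in p53fl/fl libraries. Without library 1606, Ogn in p53fl/fl units reached 76.7 CPM at most, so the genotypes covered a similar range apart from that library. Chad (chondroadherin, a cartilage protein that binds collagen II and integrins) had 0, 1.18 and 14.3 CPM in p53R245W/fl libraries, 0.0262, 4.47 and 17.3 CPM in p53R172H/fl libraries and 0, 2.21 and 19.0 CPM in p53fl/fl libraries. Chad had a count of 0 in p53R245W/fl libraries 494 and 408 and in p53fl/fl library 471, which allows up to 0.0795, 0.0804 and 0.0606 CPM (3 counts, counting error only). Podn (podocan, a collagen-binding protein outside the canonical classes) had 0.339, 4.70 and 17.01 CPM in p53R245W/fl libraries, 0.164, 3.84 and 22.1 CPM in p53R172H/fl libraries and 0.414, 3.79 and 11.5 CPM in p53fl/fl libraries. Chad and Podn stayed under 25 CPM in every library, and both ran over at least 2 orders of magnitude across the series where they were detected.

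Reads of some members cannot be told from those of an overlapping gene if strand was not used in counting, which the sources used here do not state, although the libraries were stranded. Aspn, Omd and Ogn lie within Cenpp on the opposite strand, and Chad lies within Acsf2 on the opposite strand. Podn overlaps Scp2 on the same strand, where the use of strand would not separate the reads of the 2 genes. Cenpp had a median of 2.99 CPM, Acsf2 of 22.9 CPM and Scp2 of 48.9 CPM. The levels of Chad and Podn lie below those of their overlapping genes and are the least certain.

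No member differed between genotypes in the edgeR quasi-likelihood test over all 52 libraries. In p53R245W/fl against p53fl/fl tumours 0 of 9 members were called (adjusted p under 0.05 over 18882 genes), where 17.8% of all genes tested were called. In p53R172H/fl against p53fl/fl tumours 0 of 9 were called, where 3.75% of all genes were called. In p53R245W/fl against p53R172H/fl tumours 0 of 9 were called, where 30.9% of all genes were called. By edgeR no member had an unadjusted p under 0.05 in any of the 3 comparisons. DESeq2 also called 0 of 9 members in each, where it called 19.0%, 5.85% and 30.8% of all genes in the same order of comparisons, with 1 unadjusted p under 0.05 in p53R172H/fl against p53fl/fl (Lum). The paired fit (limma voom with library set as a term and a correlation of 0.857 between matched libraries) called 0 of 9 in each, where it called 0.0159%, 0.0106% and 1.55% of all genes in that order.

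The members' log2 fold changes were small beside their errors. In p53R245W/fl minus p53fl/fl they ran between -0.70 ± 0.70 for Chad and 0.51 ± 0.54 for Dcn (log2 fold change ± SE), and Bgn had the most precise value at -0.49 ± 0.29 with an edgeR adjusted p of 0.241. In p53R172H/fl minus p53fl/fl they ran between -1.04 ± 0.56 for Lum (edgeR adjusted p = 0.317) and 0.35 ± 0.68 for Chad, with Aspn at -0.87 ± 0.50 and Ogn at -0.75 ± 0.45. In p53R245W/fl minus p53R172H/fl they ran between -1.04 ± 0.68 for Chad (edgeR adjusted p = 0.239) and 0.81 ± 0.56 for Lum, with Dcn at 0.74 ± 0.52. The intervals leave room for sizable differences in most members. For Lum in p53R172H/fl minus p53fl/fl the 95% interval was -2.17 to 0.09, and for Chad in p53R245W/fl minus p53R172H/fl it was -2.40 to 0.31, whereas for Bgn in p53R172H/fl minus p53fl/fl it was -0.59 to 0.53.

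**Figure D2:**
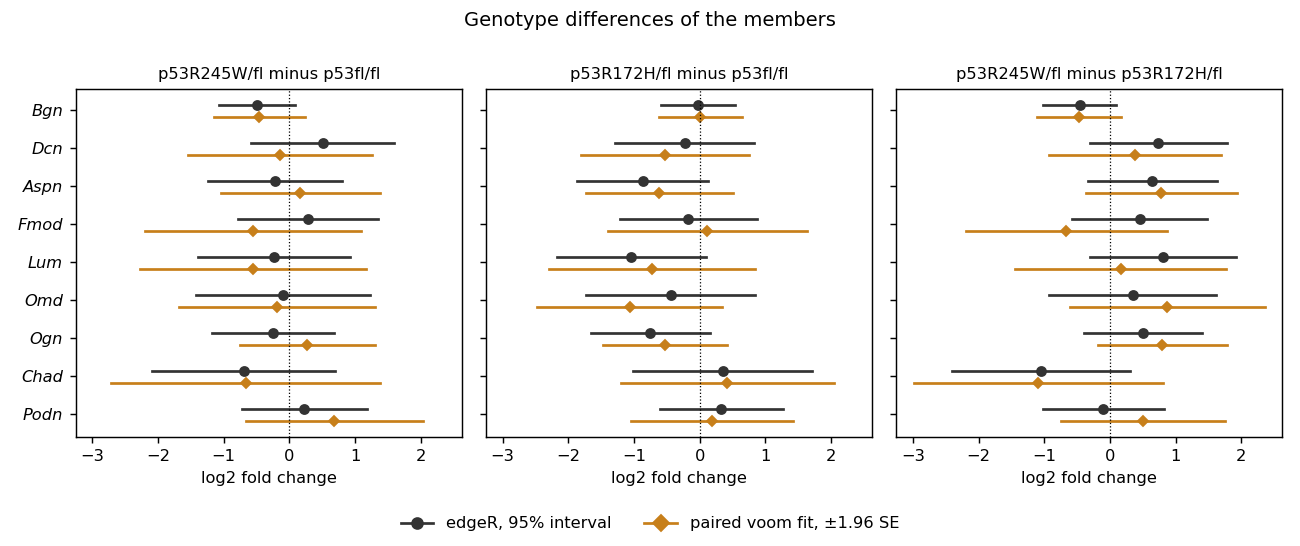
Log2 fold change (horizontal axis) of each member (vertical axis) in the 3 genotype comparisons, by edgeR with its 95% interval and by the paired voom fit with the normal interval of the same width from its standard error. Every interval includes 0, and the voom intervals are in most cases wider than those of edgeR.

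The direction of several members rested on few libraries. Without p53fl/fl library 1606, the log2 fold change of Ogn in p53R172H/fl minus p53fl/fl was 0.09 and that of Aspn -0.14. Aspn stood at 0.51 and Ogn at 0.60 in p53R245W/fl minus p53fl/fl without this library, against -0.22 and -0.25 with it. Without the 5 libraries of low Col1a1, Dcn in p53R245W/fl minus p53fl/fl was -0.23, and Fmod in p53R245W/fl minus p53R172H/fl was 0.89 with an edgeR adjusted p of 0.0558, the lowest of any member under any alternative. Over all 9 members the median log2 fold change was -0.22 in p53R245W/fl minus p53fl/fl, -0.23 in p53R172H/fl minus p53fl/fl and 0.45 in p53R245W/fl minus p53R172H/fl. The same medians over all genes tested were 0.04, -0.02 and 0.07. The comparisons share their groups, so these values are not independent of each other.

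Within each library set no member was called either, but few genes of any kind were. Within set B edgeR called 0.0220% of all genes in p53R245W/fl minus p53fl/fl, 0.00549% in p53R172H/fl minus p53fl/fl and 3.38% in p53R245W/fl minus p53R172H/fl. Within set C the shares were 0.00%, 0.00% and 0.0148% in the same order, and within set A 0.532% in p53R172H/fl minus p53fl/fl. The lowest edgeR adjusted p within a set was 0.259, for Aspn in p53R245W/fl minus p53R172H/fl libraries of set C (log2 fold change 1.55 ± 0.66, 11 against 5 libraries), and the same comparison gave 0.43 ± 0.81 in set B (6 against 6). Lum was lower in p53R172H/fl than in p53fl/fl libraries by the fitted log2 fold change in each set. The values were -0.43 in A, -1.47 in B and -1.95 in C, none of them past the test. Every set B library has a match in set A or C, so values within sets, here and in the correlations, are not independent of each other. Set C holds only 2 p53fl/fl libraries, and the L code of its column names nearly separates its p53R245W/fl libraries from the others. Aspn differed between the sets in the same comparison, at -1.17 in A, 0.07 in B and -0.09 in C, and library 1606 belongs to set A. No member passed the edgeR test of a difference between sets in any comparison, with unadjusted p-values of at least 0.274. Over all genes 23 passed it in p53R172H/fl minus p53fl/fl (sets A, B and C) and 0 in each of the other comparisons (sets B and C). Permutation tests of mean log2 CPM (100000 resamples, two-sided, 27 tests) gave adjusted p-values of at least 0.936 over units and at least 0.578 over libraries. The smallest unadjusted value over libraries was 0.0378, for Bgn in p53R245W/fl minus p53R172H/fl (-0.71 in mean log2 CPM).

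Tumours differed widely in these genes, and matched libraries repeated the differences. Between the libraries of a matched pair the Pearson correlation of log2 CPM ran between 0.87 for Podn and 0.99 for Bgn over 18 pairs. The log2 SD between units ran between 0.923 for Bgn and 2.33 for Chad, with 2.22 for Lum and 2.15 for Fmod. The SD within pairs was far smaller, between 0.114 for Bgn and 0.622 for Chad. Genotype accounted for between 0.571% (Podn) and 6.13% (Bgn) of the variance of the members over 34 units, where genotype labels unrelated to the values would give 6.06% on average, and for 19.97% of that of Col1a1. In bulk RNA, fewer cells of a type and less RNA per cell cannot be told apart, and this holds for all differences between tumours given here.

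Set B libraries differed from their matched libraries in the same direction for some members. Bgn was higher in the set B library in 18 of 18 pairs, by a mean of 0.37 log2 units, and Podn in 15 of 18, by 0.45. Lum was higher in set B in 1 of 18 pairs, with a mean difference of -0.69, and Ogn in 1 of 18, with -0.59. Dcn (-0.12), Aspn (0.00) and Fmod (0.18) shifted less. The pair 408 and 1835 had the largest difference of all pairs in 7 of the 9 members, with 3.22 log2 units in Lum.

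**Figure D3:**
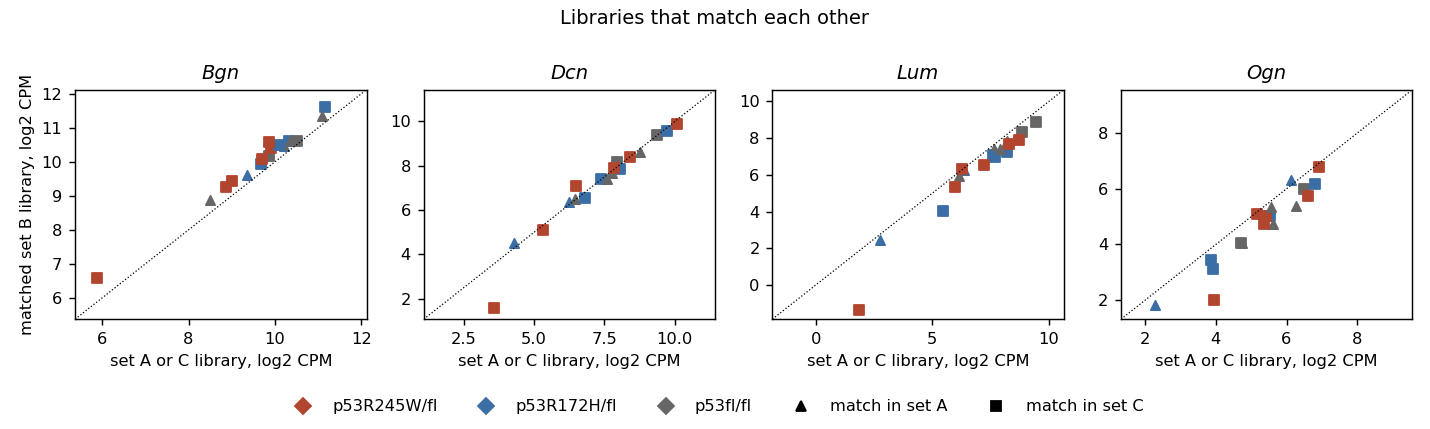
Log2 CPM of Bgn, Dcn, Lum and Ogn in each set B library (vertical axis) against its match from another set (horizontal axis), with the line of equality dotted, colours for genotype and shapes for the set of the matched library. Bgn lies above the line in 18 of 18 pairs and Lum below it in 17 of 18, and the pair 408 and 1835 lies farthest from it in Lum, Dcn and Ogn, by 3.22, 1.99 and 1.97 log2 units.

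The p53R245W/fl libraries of low Col1a1 had member profiles that differed between tumours. In libraries 408 and 1835, Dcn stood at 2.95 and 11.8 CPM, Lum at 0.348 and 3.59 CPM, Fmod at 1.66 and 3.34 CPM and Bgn at 96.9 and 58.7 CPM, while Omd stood at 14.7 and 37.5 CPM, near its median of 19.97 CPM over all libraries. In libraries 494 and 1831, Fmod stood at 1.67 and 1.61 CPM and Omd at 1.41 and 1.66 CPM, while Dcn stood at 936 and 1089 CPM and Aspn at 191 and 162 CPM, among the highest of the series. In library 1580, which has no matched library, Dcn stood at 1958 CPM, the highest of the series, with Fmod at 373 CPM and Lum at 52.3 CPM. Low Col1a1, the main collagen chain of bone, thus went with a low level of nearly all members in 1 unit, of Fmod, Omd and Chad in another, and of none to the same degree in the third. These libraries were found to stand apart in the data, so their values are a description. The matched pairs among them also stood apart in markers of other cell types, given below.

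**Figure D4:**
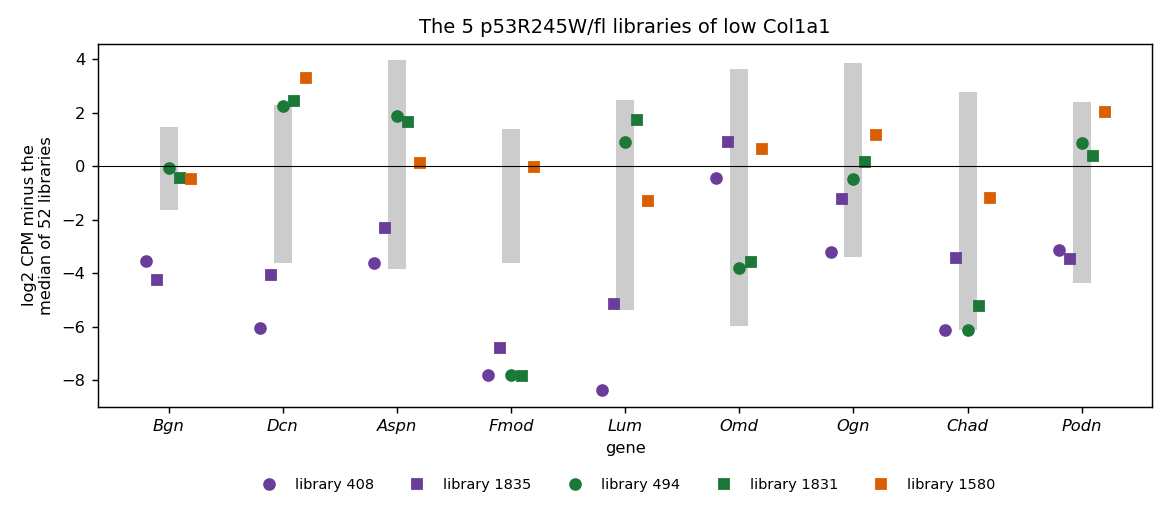
Log2 CPM of each member (horizontal axis) in the 5 p53R245W/fl libraries of low Col1a1, minus the median of 52 libraries (vertical axis), with 1 colour per tumour unit, circles for set B and squares for set C. Grey bars span the p53R172H/fl and p53fl/fl libraries. The matched libraries 408 and 1835 fall below the bar in Bgn, Dcn and Fmod. The matched libraries 494 and 1831 fall below it in Fmod, and libraries 1580 and 1831 lie above it in Dcn.

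Most members rose and fell together over the tumours, with Chad apart from the rest. Over 34 units, 34 of 36 pairs of members had a Pearson correlation of log2 CPM above 0, and 18 pairs passed an adjusted p of 0.05 for both Pearson's r and Spearman's rho (permutation tests, 36 pairs). Omd and Ogn, neighbours on chromosome 13, had the highest correlation, with r = 0.78 (permutation adjusted p = 9.0e-05) and rho = 0.81 (permutation adjusted p = 0.00012). Without the 2 units farthest from the Omd median r was 0.78, and within sets A, B and C it was 0.85, 0.74 and 0.71. Aspn correlated with its neighbour Ogn at r = 0.68 and rho = 0.65 (permutation adjusted p = 0.00012 and 0.00054), and with its neighbour Omd at r = 0.39 and rho = 0.48 (permutation adjusted p = 0.0394 and 0.0123). Within sets A, B and C these r were 0.68, 0.67 and 0.62 for Aspn with Ogn and 0.41, 0.30 and 0.30 for Aspn with Omd. The 3 neighbours were thus related to different degrees, Omd with Ogn more closely than Omd with Aspn by the value of r, a difference that was not tested.

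Dcn and Lum, neighbours on chromosome 10, had r = 0.75 and rho = 0.73 (permutation adjusted p = 9.0e-05 and 0.00012), with 0.59 without the 2 farthest units and 0.73, 0.91 and 0.69 within sets A, B and C. The 4 pairs on a shared chromosome within a cluster had a median r of 0.71 and the 32 other pairs one of 0.44, which is a description, since pairs share genes. Genes on different chromosomes were as closely related in places. Aspn (chromosome 13) and Podn (chromosome 4) had r = 0.75 and rho = 0.75 (permutation adjusted p = 9.0e-05 and 0.00012), with 0.68 without the 2 farthest units and 0.76, 0.65 and 0.76 within the sets. Lum correlated with Ogn at r = 0.69 and rho = 0.60 and with Bgn at r = 0.67 and rho = 0.57, all past the adjusted threshold. Without the 2 farthest units these r were 0.65 and 0.62, and within sets A, B and C they were 0.79, 0.70 and 0.57 for Lum with Ogn and 0.44, 0.73 and 0.76 for Bgn with Lum.

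Relations of Fmod varied with the units included. Here the 2 farthest units are those farthest from the median of the first-named gene of a pair (Bgn, Dcn or Fmod). Bgn and Fmod had r = 0.66 and rho = 0.58 (0.72, 0.66 and 0.63 for r within sets A, B and C), both past the adjusted threshold, and r was 0.39 without the 2 farthest units and 0.60 without the 3 units of low Col1a1. Dcn and Fmod had r = 0.35 (permutation adjusted p = 0.0655), with -0.04 without the 2 farthest units, 0.53 without the units of low Col1a1 and 0.56, 0.30 and 0.21 within sets A, B and C. Fmod and Chad had r = 0.39 with a rho of 0.03, and r was -0.12 without the 2 farthest units, -0.13 without the units of low Col1a1 and -0.17, 0.64 and 0.66 within sets A, B and C. Chad had r between -0.06 and 0.24 with the other 7 members.

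**Figure D5:**
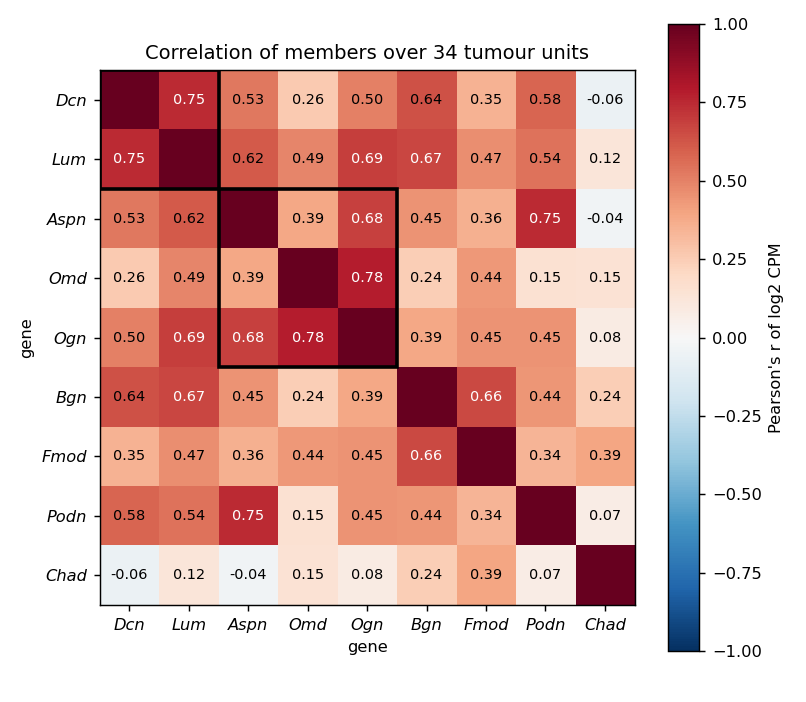
Pearson's r of log2 CPM between members over 34 tumour units, as a grid with genes on both axes and colour for r; black frames enclose Dcn with Lum on chromosome 10 and Aspn, Omd and Ogn on chromosome 13. Omd with Ogn has the highest value (0.78) and the Chad row the lowest.

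The genes most like each member were found by Pearson correlation of log2 CPM over 52 libraries among 14910 genes with a mean of at least 1 CPM. For Aspn they were Col3a1 (0.84), the chain of collagen III, the collagen prolyl hydroxylase subunit P4ha3 (0.79) and Thbs2 (0.78), a matricellular thrombospondin. For Fmod they were Col5a1 (0.87), a chain of collagen V, the glypican Gpc1 (0.86) and Ptprd (0.86), a receptor tyrosine phosphatase. For Dcn they were Lum (0.80), Dse (0.75), the epimerase that makes dermatan sulfate, and Cd82 (0.75), a tetraspanin. For Lum and for Ogn the first was Timp2 (0.80 and 0.78), an inhibitor of metalloproteases, and the second was the chromosomal neighbour, Dcn (0.80) and Omd (0.76). The third was P2ry10b (0.79) for Lum and Itgbl1 (0.76) for Ogn. Omd was followed most closely by Fam180a (0.80), Ogn (0.76) and Dchs2 (0.75), a large protocadherin. Podn was followed by Fgf2 (0.80), Cpxm2 (0.80) and Map6 (0.79), and Bgn by Cpeb2 (0.79), Pid1 (0.78) and Dock10 (0.78). Chad had the lowest such values, with Fam214a (0.69), Tmem182 (0.68) and Myl3 (0.66), a myosin light chain of heart and slow muscle. Matched libraries and library sets are shared by the points of these correlations.

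Markers of other cell types moved with some members. Over 34 units and 99 relations of 9 members with 11 marker lists, 7 passed an adjusted p of 0.05 for both r and rho. Podn correlated with the fibroblast list at r = 0.83 and rho = 0.82 (permutation adjusted p = 0.00099 for both), with the tenocyte list at r = 0.68 and with the skeletal muscle list at r = 0.63. Aspn correlated with the tenocyte list at r = 0.66 and the fibroblast list at r = 0.60, Lum with the tenocyte list at r = 0.65 and Ogn with it at r = 0.56. The tenocyte list includes Kera, itself a gene of the wider family, so these relations are not wholly separate from the family. For Podn and fibroblast markers r was 0.80 without the 2 farthest units and 0.85, 0.77 and 0.77 within sets A, B and C. Over the 7 relations rho ran between 0.51 and 0.82, with permutation adjusted p-values of at most 0.00614 for r and 0.0329 for rho, and r without the 2 farthest units ran between 0.50 and 0.80. Within sets r ran between 0.60 and 0.85 in A, 0.42 and 0.77 in B and 0.39 and 0.77 in C. No member passed both tests with the osteoblast, osteocyte, chondrocyte, macrophage, T and NK cell, endothelial, epithelial or osteoclast list. Taken by r, 13 of the 99 relations passed. Among these, the macrophage list had r = 0.64 with Lum, 0.59 with Bgn and 0.58 with Dcn (permutation adjusted p of at most 0.00999). Their rho was 0.44, 0.42 and 0.37 (permutation adjusted p of at least 0.0863), and r without the 2 farthest units 0.35, 0.22 and 0.29. Bgn with the osteoblast list passed for rho (0.49, permutation adjusted p = 0.0352) and not for r (0.44). Fmod had r = 0.69 with the osteoblast list and a rho of 0.30, and r was 0.62 without the 2 farthest units, 0.24 without the units of low Col1a1 and 0.32, 0.86 and 0.75 within sets A, B and C.

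All 8 fibroblast markers were in the table, and their summed level ran between 423 and 1873 CPM in p53R245W/fl libraries, 406 and 2401 CPM in p53R172H/fl libraries and 338 and 862 CPM in p53fl/fl libraries. Pdgfra had the highest medians of this list, at 322, 383 and 356 CPM in the same order. All 5 tenocyte markers were in the table, with sums of 20.8 to 4982 CPM, 33.8 to 1271 CPM and 25.4 to 482 CPM in the same order, of which Thbs4 made up most. Kera, a defining corneal and tendon member of the wider family that is on this list, was at 0 in 21 of 52 libraries. Every marker weighs the same in a score, so Kera counted as much as Thbs4 in the correlations. All 8 muscle markers were in the table, with sums of 18.7 to 3809 CPM, 82.9 to 14779 CPM and 21.9 to 2496 CPM. All 10 osteoblast markers were in the table, with sums of 2069 to 96727 CPM, 30473 to 100808 CPM and 16851 to 84301 CPM. Col1a1, which other connective tissue cells also express, had at least 1053 CPM in every library. The more restricted osteoblast markers came near 0 in some p53R245W/fl libraries, where the lowest level was 0.053 CPM for Sp7, 0.504 CPM for Alpl and 1.14 CPM for Ibsp, and Bglap2 was at 0 in 2 of 17. In p53R172H/fl and p53fl/fl libraries Sp7 had at least 87.2 and 81.8 CPM. The 5 libraries of low Col1a1 had the lowest scores on the osteoblast list, between -6.76 and -3.31, and the next library stood at -1.26. Col1a1 is itself on this list, so part of the low scores follows from how these libraries were chosen. Libraries 408 and 1835 had the highest scores of the series on the epithelial list (4.75 and 4.82) and the chondrocyte list (2.64 and 2.57). Libraries 494 and 1831 had the highest on the macrophage list (2.34 and 2.16) and the T and NK cell list (3.67 and 3.27). The part of these cell types in the members' levels was not tested.

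Among the 8 other genes of the small leucine-rich repeat family considered, 7 were tested, and Ecm2 was the 1 that differed by edgeR, in both comparisons of p53R245W/fl, where 17.8% (against p53fl/fl) and 30.9% (against p53R172H/fl) of all genes were called. Ecm2, a matrix protein gene next to the Aspn, Omd and Ogn cluster and also within Cenpp, had a lowest, median and highest level of 2.18, 7.40 and 186 CPM in p53R245W/fl libraries, of 3.06, 5.31 and 15.3 CPM in p53R172H/fl libraries and of 2.23, 5.25 and 12.8 CPM in p53fl/fl libraries. Library 1580 held the highest level and the next highest p53R245W/fl library had 17.9 CPM. The log2 fold change was 1.69 ± 0.41 in p53R245W/fl minus p53fl/fl (edgeR adjusted p = 0.00378) and 1.62 ± 0.39 in p53R245W/fl minus p53R172H/fl (edgeR adjusted p = 0.00149). Without the 5 libraries of low Col1a1 these were 0.67 (adjusted p = 0.0809) and 0.59 (adjusted p = 0.0811) by edgeR, and the paired fit gave adjusted p-values of 0.469 and 0.245. Prelp, a heparin-binding family member of connective tissue, had medians of 47.5, 54.5 and 60.4 CPM in p53R245W/fl, p53R172H/fl and p53fl/fl libraries, and Tsku, a secreted inhibitor of Wnt and BMP signals, 55.4, 53.2 and 47.6 CPM. Podnl1, the closest relative of Podn, had medians of 31.1, 33.97 and 35.5 CPM. Optc, Nyx and Chadl had medians under 1.1 CPM in each genotype, and Prelp, Tsku, Podnl1, Optc, Nyx and Chadl were not called in any comparison by edgeR over all libraries. Without the libraries of low Col1a1, Nyx was called in p53R245W/fl minus p53fl/fl (1.67) and minus p53R172H/fl (1.75).

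Few of the enzymes that build the sulfate chains of these proteins, or that sulfate tyrosines (Tpst1 and Tpst2), were called. Their share exceeded that of all genes only in p53R172H/fl against p53fl/fl tumours. Of these 29 genes, all tested, 2 were higher and 1 lower in p53R245W/fl against p53fl/fl tumours by edgeR. In p53R172H/fl against p53fl/fl 0 were higher and 3 lower, and in p53R245W/fl against p53R172H/fl 4 were higher and 1 lower. In the same order, 17.8%, 3.75% and 30.9% of all genes were called. B4galt4, a galactosyltransferase of keratan sulfate chains, was higher in p53R245W/fl than in p53R172H/fl tumours by 1.05 ± 0.19 log2 units (edgeR adjusted p = 8.1e-05) and was the 1 gene of these lists also called by the paired fit (0.88, adjusted p = 0.0408). It was lower in p53R172H/fl than in p53fl/fl tumours by edgeR (-0.70 ± 0.19, adjusted p = 0.0306), a call that the paired fit did not make (adjusted p = 0.457). Dsel, a dermatan sulfate epimerase, was at 0.77 ± 0.17 (edgeR adjusted p = 0.000755) in p53R245W/fl minus p53R172H/fl and at -0.58 ± 0.18 (edgeR adjusted p = 0.0479) in p53R172H/fl minus p53fl/fl. Tpst1, a tyrosine sulfotransferase, was at 0.95 ± 0.31 (edgeR adjusted p = 0.0170) and Chsy3, a chondroitin synthase, at -0.72 ± 0.24 (edgeR adjusted p = 0.0219) in p53R245W/fl minus p53R172H/fl. In p53R245W/fl tumours against p53fl/fl, Csgalnact1, which starts chondroitin chains, was higher by 1.06 ± 0.32 (edgeR adjusted p = 0.0166) and B3galt6, which builds the linker of the chains to the protein, by 0.47 ± 0.16 (edgeR adjusted p = 0.0335). Chst12, a chondroitin sulfotransferase, was lower in both missense groups against p53fl/fl by edgeR (-1.03 ± 0.29 in p53R245W/fl, adjusted p = 0.0107, and -0.92 ± 0.28 in p53R172H/fl, adjusted p = 0.0482), and these comparisons share the p53fl/fl libraries. Without the libraries of low Col1a1, Tpst1 (0.38), Chsy3 (-0.37), Csgalnact1 (0.04), B3galt6 (0.38) and Chst12 in p53R245W/fl minus p53fl/fl (-0.76) were no longer called by edgeR, while B4galt4 and Dsel were in p53R245W/fl minus p53R172H/fl (0.86 and 0.75). The median log2 fold change of the list was 0.00, 0.06 and -0.05 in p53R245W/fl minus p53fl/fl, p53R172H/fl minus p53fl/fl and p53R245W/fl minus p53R172H/fl, near the medians over all genes.

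Of 20 fibril collagen and crosslinking genes tested, 1 was higher and 1 lower in p53R245W/fl against p53fl/fl by edgeR, 0 were called in p53R172H/fl against p53fl/fl, and 1 was higher and 2 lower in p53R245W/fl against p53R172H/fl, where edgeR called 17.8%, 3.75% and 30.9% of all genes. Col3a1 was higher in p53R245W/fl than in p53R172H/fl tumours by 1.31 ± 0.52 log2 units (edgeR adjusted p = 0.0474). Col11a2, a fibril chain of cartilage, was lower in p53R245W/fl tumours against both other groups (-1.49 ± 0.49 against p53fl/fl, edgeR adjusted p = 0.0285, and -1.39 ± 0.48 against p53R172H/fl, edgeR adjusted p = 0.0223), and so was the lysyl oxidase Loxl4 against p53R172H/fl (-1.20 ± 0.44, edgeR adjusted p = 0.0321). Tnxb, a tenascin that binds collagen and decorin, was at 1.99 ± 0.63 in p53R245W/fl minus p53fl/fl (edgeR adjusted p = 0.0232) but at -0.02 without the libraries of low Col1a1, where Loxl4 (-0.75) and Col11a2 against p53fl/fl (-1.07) were not called either. In p53R172H/fl minus p53fl/fl the smallest unadjusted p-values were those of Col6a1 (-0.55 ± 0.31) and Col3a1 (-0.88 ± 0.52). The median log2 fold change of the list was -0.41, -0.13 and -0.17 in the same order of comparisons.

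Of 20 receptors and growth factors that bind these proteins, 1 was lower in p53R245W/fl against p53fl/fl by edgeR, 0 were called in p53R172H/fl against p53fl/fl, and 3 were higher in p53R245W/fl against p53R172H/fl, beside 17.8%, 3.75% and 30.9% of all genes. Bmp4 was at -1.29 ± 0.39 in the first comparison (edgeR adjusted p = 0.0169). Met, a decorin receptor, was at 1.02 ± 0.36 (edgeR adjusted p = 0.0274), Tgfbr1 at 0.53 ± 0.18 (edgeR adjusted p = 0.0209) and Cd14, the co-receptor of Tlr4 that biglycan uses, at 0.79 ± 0.30 (edgeR adjusted p = 0.0416) in the last. Of these, Met and Cd14 lost the call without the libraries of low Col1a1, at 0.29 and 0.53. In p53R172H/fl minus p53fl/fl the smallest unadjusted p-values were those of Tgfb3 (-0.72 ± 0.28) and Tgfbr1 (-0.37 ± 0.18). The medians of the list were -0.07, -0.23 and 0.16 in p53R245W/fl minus p53fl/fl, p53R172H/fl minus p53fl/fl and p53R245W/fl minus p53R172H/fl. Of 16 proteases, their enhancers and inhibitors tested, 1 was higher and 1 lower in p53R245W/fl against p53fl/fl, 0 higher and 1 lower in p53R172H/fl against p53fl/fl, and 2 higher and 0 lower in p53R245W/fl against p53R172H/fl, beside the same shares of all genes. Timp1 was lower in p53R172H/fl than in p53fl/fl tumours (-1.19 ± 0.32, edgeR adjusted p = 0.0273), Pcolce, which enhances procollagen cleavage, was lower in p53R245W/fl than in p53fl/fl tumours (-0.64 ± 0.23, edgeR adjusted p = 0.0451), and Htra1, a serine protease that cleaves decorin, was higher in p53R245W/fl than in p53R172H/fl tumours (1.23 ± 0.36, edgeR adjusted p = 0.00808). Mmp3 was at 2.68 ± 0.92 and 4.07 ± 0.91 in p53R245W/fl minus p53fl/fl and minus p53R172H/fl (edgeR adjusted p = 0.0350 and 0.000757), but at -1.10 and 0.30 without the libraries of low Col1a1, where Pcolce stood at -0.37 and was not called. The medians of this list were 0.15, -0.25 and 0.32 in the same order. None of the genes named in these collagen, receptor and protease lists was called by the paired fit.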

How the data were processed

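Stranded mRNA libraries of 52 frozen osteosarcomas were sequenced as read pairs, per the labels' protocols. The authors deposited raw read counts per gene, with no normalization. Reads were aligned with STAR to GRCm38, per the submitters' processing notes, and the sources used here name neither the counting program, nor its use of strand, nor the annotation. Every gene of the table had at least 260 counts in all. Identifiers were joined to GENCODE M21, which named 20668 of 20730 genes.

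Groups follow the genotype in the labels. edgeR 4.0.16 (R 4.3.3) fitted all 52 libraries with TMM library sizes and filterByExpr at a minimum count of 10 (18882 genes), with quasi-likelihood F tests and Benjamini-Hochberg adjustment over all genes. Standard errors were taken from the F statistic as the absolute log2 fold change divided by its root. Log2 CPM used a prior count of 2. The paired fit was voom of limma 3.58.1 with library set as a term and duplicateCorrelation over matched libraries. Other alternatives were DESeq2 1.42.0, RLE factors, no filter, library set as covariate, fits of 2 groups alone and fits that left out the low-Col1a1 libraries. Added after seeing the data were sums of matched libraries and fits without library 627 or 1606. Marker scores are the mean log2 CPM of a list, each gene centred on its median. In correlations, the 2 farthest units were those farthest from the median of 1 variable only. That variable was the marker score in marker relations and, between members, the gene that comes first in the opening list of 10. edgeR treats matched libraries as independent, so its p-values are too small, which the paired fit and the sums of matched libraries address. Counting error weighs more on Chad and Podn than on the other members. Their log2 SD was 2.33 and 1.62 between units, against 0.622 and 0.456 within matched pairs, so the spread between tumours also limits precision.

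All 10 members were named, every gene of the other family list, up to 4 called genes of each further list and comparison with the largest change (or the 2 of smallest p where none was called), and the 3 genes most like each member. The members and lists were chosen with earlier results of these data known. Sequences are RefSeq promoter windows (GRCm38.p6), matched by symbol for 8 members.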

Additional observations from a re-analysis of the deposited data

How the results depend on the processing

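Of 270 values of 27 member comparisons under 10 alternatives, 249 kept their direction, 21 turned and 0 were called. The direction turned for 12 of the 27. For p53R245W/fl minus p53fl/fl, with library set as covariate Aspn was 0.63, Omd 0.18 and Ogn 0.079 in log2 fold change. In the same comparison the paired voom fit gave Dcn -0.15, Aspn 0.17, Fmod -0.55 and Ogn 0.27, leaving out the low-Col1a1 libraries gave Dcn -0.23 and Omd 0.26, sums of matched libraries gave Lum 0.15, and the fit without library 1606 gave Aspn 0.51, Omd 0.14 and Ogn 0.60. In p53R172H/fl minus p53fl/fl the paired voom fit gave Bgn 0.012 and Fmod 0.12, and the fit without library 1606 gave Bgn 0.035 and Ogn 0.095. In p53R245W/fl minus p53R172H/fl, library set as covariate gave Podn 0.30, the paired voom fit gave Fmod -0.67 and Podn 0.50, and leaving out the low-Col1a1 libraries gave Dcn -0.0052. DESeq2, RLE factors, no filter, fits of 2 groups and the fit without library 627 turned no member's direction.

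Counts over all genes moved more. For p53R245W/fl minus p53fl/fl, against 3365 genes called, library set as covariate called 1005, the paired voom fit 3 and sums of matched libraries 1783. In p53R172H/fl minus p53fl/fl, against 708, DESeq2 called 1212, the paired voom fit 2, leaving out the low-Col1a1 libraries gave 1167 and sums of matched libraries 51. In p53R245W/fl minus p53R172H/fl, against 5829, the paired voom fit called 293 and sums of matched libraries 3000. The cause of these changes was not tested. Counting error touched Chad (0 to 973 counts per library) and Podn (11 to 1359) more than the other members. No paired analysis was possible because the genotypes share no tumour numbers, and the paired voom fit ties matched libraries within a genotype.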
